A study of Mus musculus with 13 samples.

Results

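The genes described here are 8 dual-specificity phosphatases, Dusp1, Dusp2, Dusp4, Dusp5, Dusp6, Dusp7, Dusp10 and Dusp12, and a pair of genes that respond to ERK signalling, Ier3 and Egr1. Every probe set annotated to 1 of these 10 symbols was taken, which gave 11 of the 21789 probe sets with 1 gene symbol on the Affymetrix Gene 1.0 ST array and 15 of 34958 on the 430 2.0 array. All 10 genes were measured on both array types and passed the filter on low values on both. On 430 2.0 that filter stood at 2.38, close to the lowest value of 2.19, so passing it there does not show expression. On Gene 1.0 ST it stood at 5.10, and some markers of T cells and fibroblasts also passed it. There too, passing does not show expression. The 10 genes were put together with the group differences of these same comparisons in view. Their levels and differences are therefore given as a description, with no test.

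The RNA came from B3, a mouse pre-B cell line, transduced with retroviruses that also carry GFP behind an internal ribosome entry site. On 9 Gene 1.0 ST arrays, cells carrying HA-tagged Ikaros fused to ERt2, a modified estrogen receptor domain that 4-hydroxytamoxifen activates, were exposed to that drug for 6 h (Ikaros-ERt2 6 h, n = 3) or 2 h (Ikaros-ERt2 2 h, n = 3). Their reference was cells with ERt2 alone after 6 h of the drug (vector-ERt2 6 h, n = 3). On 4 arrays of the 430 2.0 type, cells were harvested 48 h after infection with HA-tagged wild-type Ikaros (Ikaros, n = 2) or with 159A, a DNA-binding-deficient HA-tagged Ikaros mutant (159A, n = 2). No vector sample at 2 h and no Ikaros-ERt2 sample without drug was among the samples, so an effect of the drug-activated protein and a standing difference between the 2 transduced populations cannot be told apart. The 2 h comparison with vector also joins the construct to a difference in hours of drug. Between Ikaros-ERt2 6 h and 2 h, an effect of the drug or the time alone cannot be told apart from one of Ikaros. At 48 h the reference was a mutant protein and not a vector. Both Ikaros-ERt2 groups were compared with the same 3 vector arrays and share that source.

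Dual-specificity phosphatases remove phosphate from the threonine and the tyrosine in the activation loop of MAP kinases and so switch them off. Several are themselves transcribed in response to ERK, JNK or p38 activity and close a negative feedback loop. They differ in place and substrate: some are nuclear and quickly induced, some are cytoplasmic and prefer ERK, others act on JNK and p38, and the atypical members lack the MAP kinase-binding domain. In pre-B cells, the pre-B-cell receptor and the interleukin-7 receptor both signal through ERK. The gene Ikzf1 encodes Ikaros, a transcription factor of lymphocytes with zinc fingers that can activate or silence genes and that promotes the differentiation of pre-B cells.

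Promoter windows of 300 bases, 250 before to 50 after the transcription start, were taken from RefSeq (build GRCm38.p6) for the 8 members with an entry, and Dusp4 and Egr1 had none. Dusp5 and Ier3 are shown as examples. Dusp5 was higher in Ikaros-ERt2 than in vector cells at both times without overlap, and Ier3 was lower there. Each of these windows holds a motif named next. Dusp12 meets the same terms by its brightest probe set, which was also lower, but its window is not printed. Capitals mark GGGAA on either strand, the core of the sequence that Ikaros recognises, and the CArG box, the site of serum response factor, through which ERK signalling reaches many immediate early genes. The Dusp5 window lies at chr19:53528895-53529194 on the plus strand and the Ier3 window at chr17:35821463-35821762 on the plus strand.
Dusp5: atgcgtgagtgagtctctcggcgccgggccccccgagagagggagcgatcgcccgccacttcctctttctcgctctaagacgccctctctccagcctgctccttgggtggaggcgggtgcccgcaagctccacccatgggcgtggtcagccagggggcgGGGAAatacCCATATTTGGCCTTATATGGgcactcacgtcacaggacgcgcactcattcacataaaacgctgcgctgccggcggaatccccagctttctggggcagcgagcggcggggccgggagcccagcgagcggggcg
Ier3: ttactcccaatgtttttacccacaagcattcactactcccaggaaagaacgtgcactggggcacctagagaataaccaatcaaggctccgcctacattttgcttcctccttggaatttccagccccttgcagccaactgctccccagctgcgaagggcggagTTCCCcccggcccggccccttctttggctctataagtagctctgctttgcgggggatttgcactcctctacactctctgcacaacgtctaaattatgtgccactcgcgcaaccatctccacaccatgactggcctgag
In the Dusp5 window, 1 GGGAA began 91 bases before the start, and 2 CArG boxes began 82 and 72 bases before it without overlapping it or each other. In the Ier3 window, 1 match began 88 bases before the start, and there was no CArG box. Of 32851 mouse promoter windows of the same length, 62.7% held GGGAA on at least 1 strand, 1.63% held a CArG box and 0.018% held 2 or more. The Dusp12 window held 3 matches to GGGAA, that of Dusp2 held 2, and those of Dusp1, Dusp6, Dusp7 and Dusp10 held 0. A match describes the letters only and is neither a bound site nor a cause.

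Across the series, Ikzf1 was at 13.26 ± 0.04 in Ikaros-ERt2 6 h and 13.28 ± 0.10 in Ikaros-ERt2 2 h, against 9.27 ± 0.12 with vector-ERt2 (log2 signal, SD, n = 3 each). For vector-ERt2 replicate 1, the title gives the vector but another label gives inducible Ikaros, and its Ikzf1 of 9.16 was the lowest of the vector arrays. Leaving it out moved no member's difference by more than 0.11 at 2 h or 0.10 at 6 h. At 48 h, 1 Ikzf1 probe set read 12.04 ± 0.06 in Ikaros and 11.71 ± 0.15 in 159A cells, and another read 4.44 ± 0.46 in Ikaros and 12.78 ± 0.07 in 159A cells (SD, n = 2 each), and which part of the transcript each reads is not used here. All 7 B-lineage markers measured were above the filter on both array types. Their mean per array was 9.89 to 10.02 at 6 h, 10.03 to 10.10 at 2 h and 10.28 to 10.40 in vector cells, and 11.36 to 11.72 in Ikaros against 11.78 to 12.06 in 159A cells. These means join markers that moved apart. At 48 h, Igll1 and Vpreb1, which encode the surrogate light chain of pre-B cells, fell by 5.92 and 3.92 on the log2 scale (adjusted p = 0.018 and 0.0314, limma), while Cd79b and Pax5 rose by 2.12 and 1.25 (adjusted p = 0.0393 and 0.0201). At 6 h, Vpreb1, Igll1 and Blnk fell by 1.17, 1.07 and 0.94 (adjusted p = 0.0003, 0.000776 and 0.00373) and none was called higher, and at 2 h Vpreb1 alone was called, lower by 0.52 (adjusted p = 0.0389). Against Ikaros-ERt2 2 h, Igll1 and Vpreb1 were lower at 6 h by 0.81 and 0.65 (adjusted p = 0.0183 and 0.0282, limma). Ebf1 and Cd79b were higher there by 0.57 and 0.44 (adjusted p = 0.0375 and 0.0354). The part of these markers in the members' differences was not tested. Of the markers of T cells, myeloid cells, erythroid cells and fibroblasts, 4 of 18 measured were above the filter on Gene 1.0 ST and 6 of 19 on 430 2.0. None of those was called in any of the 4 comparisons by limma, and 1 had an unadjusted p under 0.05, at 48 h. The highest of them on Gene 1.0 ST, the fibroblast marker Col1a1, averaged 6.41 in each group. Some member means were below that level and may be background. They were those of Dusp10 and Dusp12 probe set 10351502 in each group, and of Ier3 and Dusp4 in both Ikaros-ERt2 groups. That of Dusp12 probe set 10360003 was below it at 6 h. On the 430 2.0 array, 36.7% of values lay within 0.01 of the lowest, 2.19. A group within 1 log2 unit of that floor has no exact level, and its fold is given as a bound. In bulk RNA, fewer cells with a transcript and less of it in each cell cannot be told apart.

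Dusp7 and Dusp6 encode the cytoplasmic phosphatases that prefer ERK. Dusp7 read 7.21, 6.80 and 6.51 on the Ikaros-ERt2 6 h arrays, 7.34, 7.36 and 7.42 on the 2 h arrays and 8.01, 8.19 and 7.98 on the vector-ERt2 arrays (log2 signal, probe set 10588495). Every array at 6 h was below every array at 2 h, and every array at 2 h was below every vector array. The group means were 6.84 ± 0.35 at 6 h and 7.37 ± 0.04 at 2 h, against 8.06 ± 0.12 with the vector (SD, n = 3 each). That put Dusp7 2.34-fold lower at 6 h, a log2 difference of -1.22, and 1.61-fold lower at 2 h, a log2 difference of -0.69 (SE 0.14 each). This was the widest range of group means among the members on this array type, 1.22 log2 units, and its 6 h arrays spread more than those of the other groups.

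At 48 h, Dusp7 was also lower with Ikaros, and its 3 probe sets differed in how well they measured it. The brightest, 1452097_a_at, read 3.91 and 3.24 in Ikaros cells and 7.58 and 6.32 in 159A cells, a log2 difference of -3.38 (SE 0.60), or 10.4-fold lower. Its lower Ikaros value was just above the near-floor limit of 3.19, so this fold is not exact. The second, 1427416_x_at, read 2.65 and 2.52 in Ikaros cells, near the floor, and 7.17 and 6.98 in 159A cells, at least 14.8-fold lower. The third, 1460393_a_at, stood at 2.20 on all 4 arrays and carries no information on the direction. The suffix of the second marks probes that may also match other sequences, so its size is the less certain.

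Dusp6 differed far less. It read 11.36, 11.43 and 11.61 at 6 h and 11.15, 11.47 and 11.27 at 2 h, against 11.75, 11.60 and 11.77 with vector-ERt2. The 3 arrays at 2 h lay below the vector arrays, by 0.41 log2 units on average (SE 0.10, 1.33-fold), whereas at 6 h 1 array reached the vector range and the difference was -0.24 (SE 0.10). At 48 h, Dusp6 read 13.48 and 12.85 in Ikaros cells and 13.17 and 13.47 in 159A cells. The groups overlapped, and the difference of -0.16 turned to 0.16 when Ikaros replicate 2 was left out. Within this ERK-selective pair, Dusp7 was thus lower without overlap in all 3 comparisons with a reference and Dusp6 in that at 2 h.

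**Figure D1:**
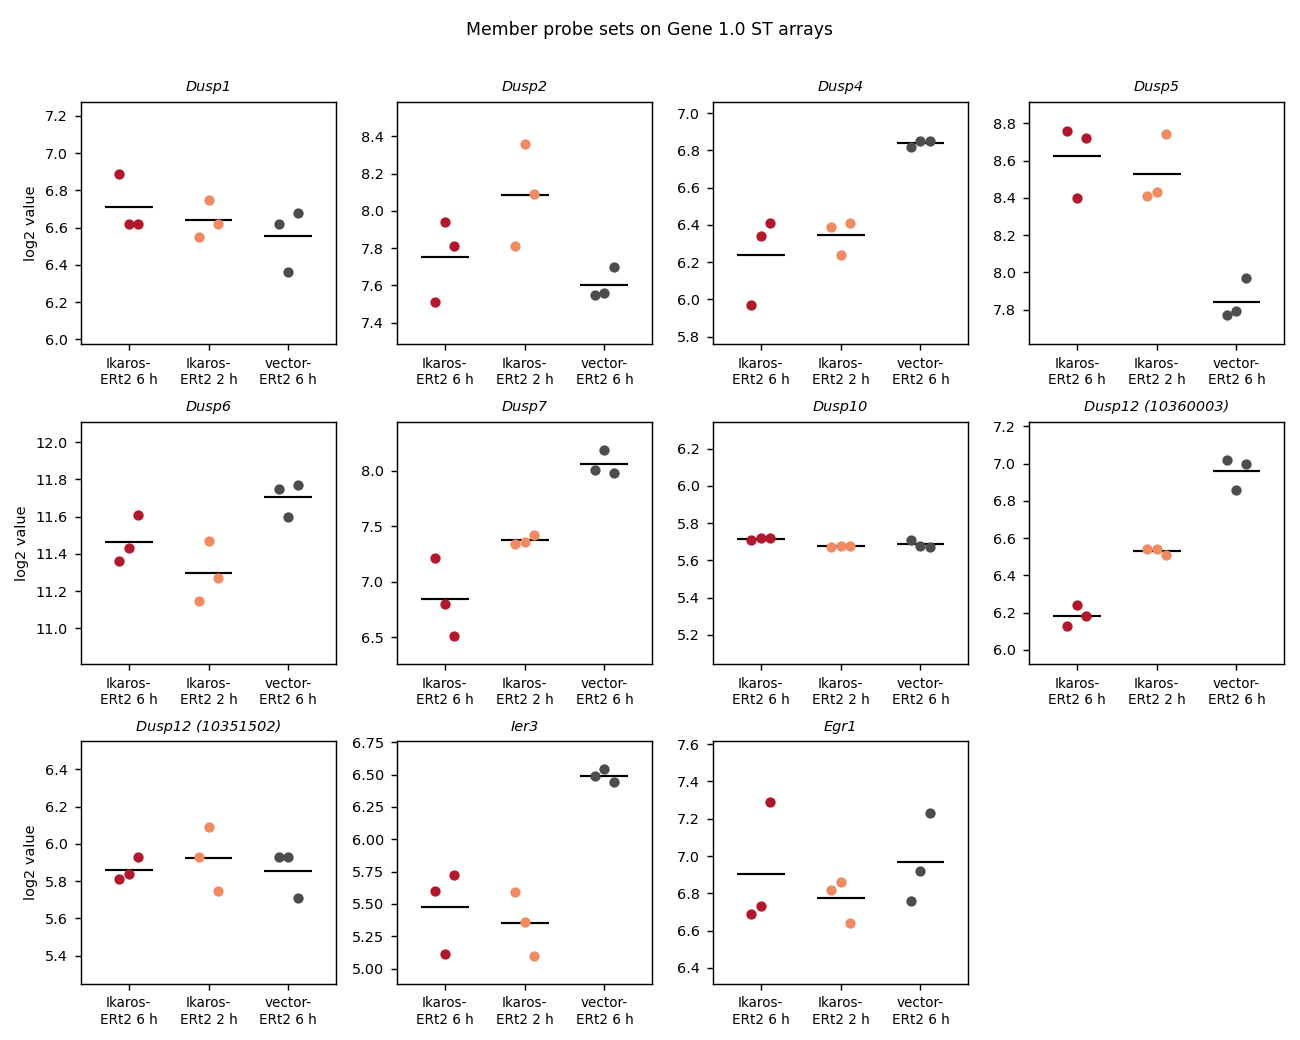
Log2 signal of the 10 members on the 9 Gene 1.0 ST arrays, 1 panel for each probe set. Points are single arrays and bars are group means, with Ikaros-ERt2 6 h, Ikaros-ERt2 2 h and vector-ERt2 6 h from left to right, and the scale differs between panels. Dusp7 stands lower in each step to the left, Dusp5 stands higher in both Ikaros-ERt2 groups, and the groups of Dusp1 and Egr1 overlap.

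Dusp4 encodes a nuclear phosphatase that is induced by ERK and acts on ERK, JNK and p38. It read 5.97, 6.34 and 6.41 in Ikaros-ERt2 6 h and 6.39, 6.24 and 6.41 in Ikaros-ERt2 2 h, against 6.82, 6.85 and 6.85 with vector-ERt2. Both Ikaros-ERt2 groups lay below the vector group without overlap and overlapped each other. The difference from vector was -0.60 at 6 h, 1.52-fold lower, and -0.49 at 2 h, 1.4-fold lower (SE 0.11 each). At 48 h, Dusp4 read 7.74 and 7.88 in Ikaros cells and 9.92 and 10.24 in 159A cells. All of these values are well above the floor, and the difference of -2.27 (SE 0.16), 4.81-fold lower, stayed between -2.42 and -2.11 when any 1 array was left out.

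Dusp5 encodes a nuclear phosphatase selective for ERK, which it also retains in the nucleus. It read 8.76, 8.40 and 8.72 at 6 h and 8.41, 8.43 and 8.74 at 2 h, against 7.77, 7.79 and 7.97 with vector-ERt2. The 6 Ikaros-ERt2 arrays were all above the 3 vector arrays, by 0.78 log2 units at 6 h (1.72-fold) and 0.69 at 2 h (1.61-fold, SE 0.12 each), and the 2 times overlapped. At 48 h, it read 10.24 and 10.36 in Ikaros cells and 10.29 and 10.36 in 159A cells. That difference was -0.02 (SE 0.08) on the deposited values and 0.08 when each array was centred on its median, so it has no settled sign. The 48 h comparison differs from the others in its time, its reference and its array type, and no difference between the comparisons was tested.

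Dusp1 and Dusp2 encode nuclear phosphatases of the immediate early kind, Dusp1 acting mainly on JNK and p38 and Dusp2 known from activated lymphocytes. Dusp2 read 7.51, 7.94 and 7.81 at 6 h and 7.81, 8.36 and 8.09 at 2 h, against 7.55, 7.56 and 7.70 with vector-ERt2. The 2 h arrays were all above the vector arrays, by 0.48 log2 units (SE 0.14, 1.4-fold), and at 6 h the groups overlapped, with a difference of 0.15. At 48 h, Dusp2 read 10.81 and 10.55 in Ikaros cells and 10.51 and 10.42 in 159A cells, apart by 0.04 at the nearest arrays. Dusp1 averaged 6.71 ± 0.15 at 6 h and 6.64 ± 0.10 at 2 h, against 6.55 ± 0.17 with vector-ERt2 (SD, n = 3 each), and its 3 groups overlapped. It averaged 7.84 ± 0.24 in Ikaros and 7.76 ± 0.06 in 159A cells at 48 h (SD, n = 2 each), again with overlap.

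Dusp10 encodes a phosphatase of JNK and p38. It averaged 5.72 ± 0.01 at 6 h and 5.68 ± 0.01 at 2 h, against 5.69 ± 0.02 with vector-ERt2 (SD, n = 3 each), with differences of 0.03 at 6 h and -0.01 at 2 h from vector (SE 0.06 each). At 48 h, probe set 1417164_at read 4.83 and 4.17 in Ikaros cells and 2.59 and 2.41 in 159A cells, near the floor, at least 2.47-fold higher. The other, 1417163_at, read 3.08 and 2.33 in Ikaros cells and 2.33 on both 159A arrays, all near the floor. The higher value at 48 h thus rests on 1 of 2 probe sets.

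Dusp12 encodes an atypical phosphatase with a zinc-binding domain, and its yeast counterpart Yvh1 acts in the assembly of ribosomes. Probe set 10360003 read 6.13, 6.24 and 6.18 at 6 h and 6.54, 6.54 and 6.51 at 2 h, against 7.02, 6.86 and 7.00 with vector-ERt2. As with Dusp7, the 6 h arrays lay below the 2 h arrays and these below the vector arrays, with no overlap between neighbours. The difference from vector was -0.78 at 6 h, 1.72-fold lower, and -0.43 at 2 h, 1.35-fold lower (SE 0.07 each). Its other probe set, 10351502, averaged 5.86 ± 0.06 at 6 h and 5.92 ± 0.17 at 2 h, against 5.86 ± 0.12 with vector-ERt2 (SD, n = 3 each), and the groups overlapped.

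At 48 h the probe sets of Dusp12 went in opposite directions. The brightest, 1420636_a_at, read 4.15 and 4.94 in Ikaros cells and 8.01 and 7.40 in 159A cells, a log2 difference of -3.16 (SE 0.42), or 8.93-fold lower. Probe set 1430891_at read 4.16 and 6.20 in Ikaros cells and 3.10 and 2.48 in 159A cells, near the floor, at least 3.97-fold higher. The platform annotation ties this probe set and 10351502 of the other array to the same single transcript record, and it ties 1420636_a_at and 10360003 to a record in common. The third, 1441436_at, stood at 2.19 on all 4 arrays. A mean over the 3 probe sets gave -0.25 at 48 h, so the direction for Dusp12 as a gene holds for the brightest probe set and not for each.

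Ier3 encodes a short-lived early response protein that ERK phosphorylates and that acts in survival signalling. It read 5.60, 5.11 and 5.72 at 6 h and 5.59, 5.36 and 5.10 at 2 h, against 6.49, 6.54 and 6.44 with vector-ERt2. All 6 Ikaros-ERt2 arrays were below all 3 vector arrays, and the 2 times overlapped each other. The difference was -1.01 at 6 h, 2.02-fold lower, and -1.14 at 2 h, 2.2-fold lower (SE 0.16 each), the largest of any member at 2 h. At 48 h, Ier3 read 6.61 and 5.50 in Ikaros cells and 7.70 and 8.62 in 159A cells, a difference of -2.10 (SE 0.61), or 4.29-fold lower. No value overlapped, although each group spanned about 1 log2 unit.

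Egr1 encodes a zinc-finger transcription factor and is a common readout of ERK activity. It averaged 6.90 ± 0.33 at 6 h and 6.77 ± 0.12 at 2 h, against 6.97 ± 0.24 with vector-ERt2 (SD, n = 3 each), with differences of -0.07 at 6 h and -0.19 at 2 h (SE 0.16 each). At 48 h, it read 10.07 and 8.24 in Ikaros cells and 9.66 and 8.50 in 159A cells. All groups overlapped, and in both 48 h groups replicate 1 was more than 1 log2 unit above replicate 2. The 48 h difference was 0.07 (SE 0.92) in a fit that ignores replicate numbers. That error includes any shift shared by same-numbered arrays, and it leaves the size of the difference unsettled.

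**Figure D2:**
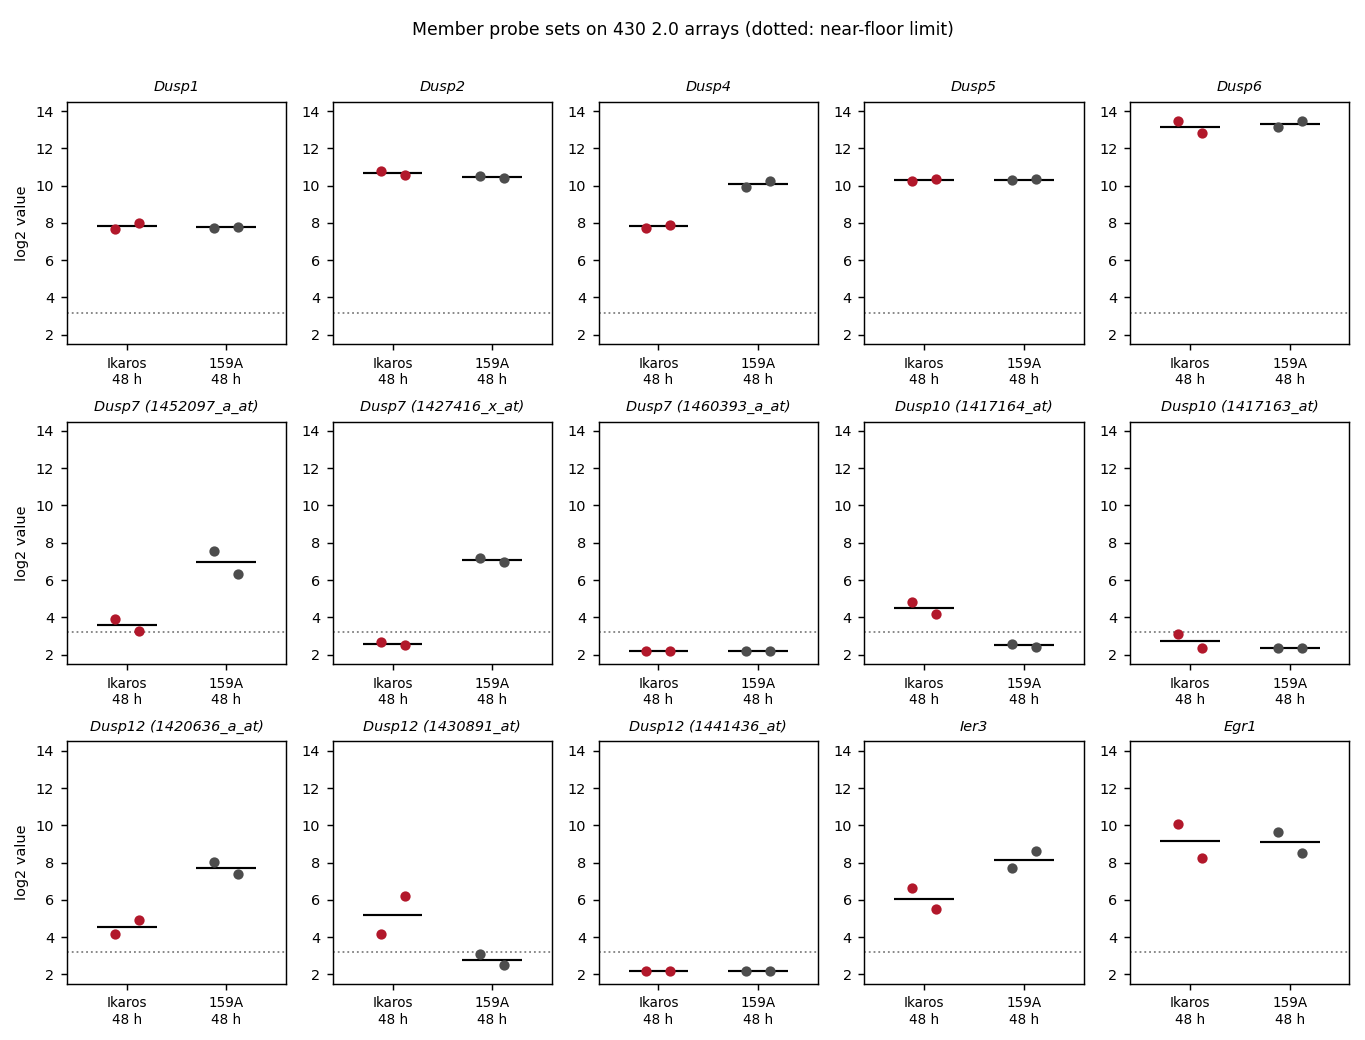
Log2 signal of the 15 probe sets of the 10 members on the 4 arrays of the 430 2.0 type, 48 h after infection, 1 panel each on the same scale. Points are single arrays, bars are group means, with Ikaros left and 159A right, and the dotted line is the near-floor limit of 3.19. Dusp4, Ier3 and the brightest probe sets of Dusp7 and Dusp12 are lower in Ikaros cells without overlap, Dusp12 probe set 1430891_at is higher, and the Egr1 groups overlap.

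Counts over the 10 members describe the selection and carry no test. At 6 h against vector, 5 members passed the threshold of an adjusted p under 0.05 in limma, Dusp5 higher and Dusp4, Dusp7, Dusp12 and Ier3 lower, where 5.78% of 11963 genes tested passed (2.58% higher and 3.20% lower). At 2 h against vector, 5 passed, Dusp5 higher and Dusp4, Dusp7, Dusp12 and Ier3 lower, where 1.86% of all genes passed (0.769% higher and 1.10% lower), and these 2 comparisons share their vector arrays. At 48 h, 2 passed, Dusp4 and Dusp12, both lower, where 14.8% of 10917 genes passed (6.38% higher and 8.47% lower). The median difference over the members was -0.15 at 6 h, -0.30 at 2 h and -0.09 at 48 h, beside 0.00, -0.01 and 0.00 over all genes tested. Since the members were chosen on these differences, nothing is read from these counts.

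The count at 6 h was 5 whichever array was left out. At 2 h it was 1 without vector-ERt2 replicate 1 (Ier3), 2 without vector-ERt2 replicate 2 or Ikaros-ERt2 2 h replicate 1, and 3 without vector-ERt2 replicate 3 or Ikaros-ERt2 2 h replicate 3. At 48 h it was 0 without any 1 of the 4 arrays, as was the count over all genes in limma, with 2165 to 3668 genes then at an unadjusted p under 0.05. Without overlap between the arrays, 1 member was higher and 4 were lower at 6 h, where 11.0% of all genes were higher and 10.3% lower in this way. At 2 h these were 2 and 5 members, where 9.23% and 9.40% of all genes were, and at 48 h 2 and 4 members, where 27.7% and 30.0% were.

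**Figure D3:**
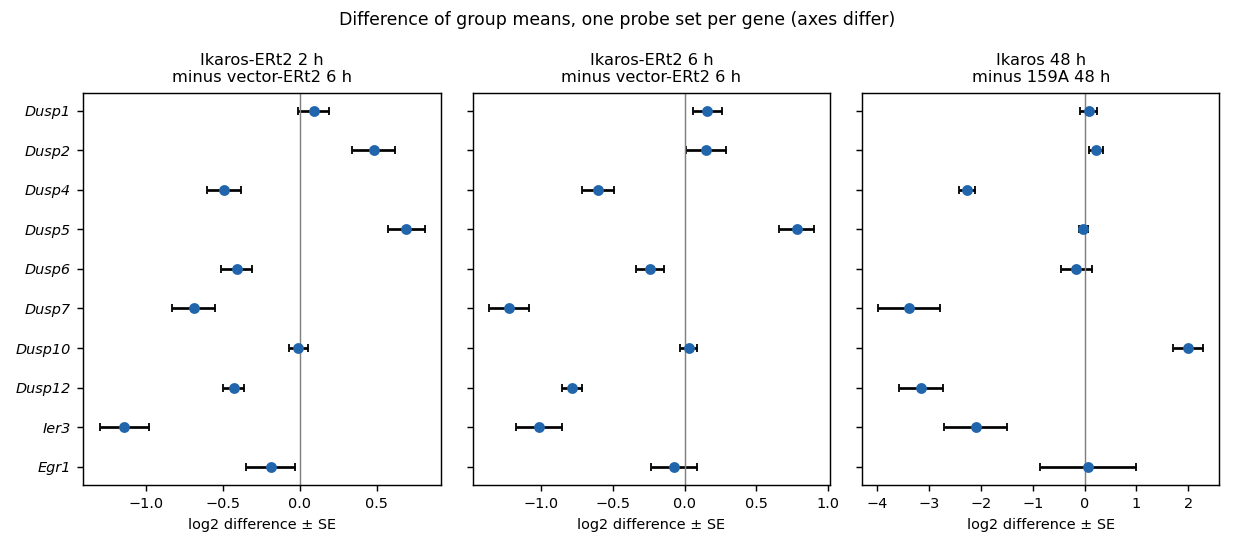
Log2 differences of the 10 members in the 3 comparisons with a reference, Ikaros-ERt2 2 h and 6 h minus vector-ERt2 6 h and Ikaros minus 159A at 48 h, with bars of 1 standard error of the fit. Dusp4, Dusp7, Dusp12 and Ier3 lie below 0 in each, Dusp5 lies above 0 on Gene 1.0 ST and near 0 at 48 h, and sizes are not comparable between array types.

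The Ikaros-ERt2 cells at 6 h were also set directly against those at 2 h. The difference itself uses no vector array, but its error and the calls come from the fit that includes the vector arrays. In a fit of the 2 groups alone, no member and no other gene passed. Dusp7 was 1.45-fold lower at 6 h (log2 difference -0.53, SE 0.14) and Dusp12 1.27-fold lower (-0.35, SE 0.07), both without overlap. The one member past the threshold was Dusp12, where 0.903% of all genes passed (0.527% lower) and 6.91% were lower without overlap. Of the 6 fits that left out 1 array, Dusp12 passed in the one without Ikaros-ERt2 6 h replicate 2, and in the one without Ikaros-ERt2 6 h replicate 1 Dusp7 passed instead. Dusp4, Dusp5 and Ier3 differed by -0.11, 0.10 and 0.12 between these times (SE 0.11, 0.12 and 0.16), each with overlapping arrays. A change between the times of about the size of these errors cannot be measured with 3 arrays a group. Larger changes can also go uncalled, as that of Dusp7 did.

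Other genes of the MAP kinase pathways were read from 5 lists with 106 genes, of which 98 were measured and 80 tested on Gene 1.0 ST, and 96 measured and 74 tested on 430 2.0. The rest were not analysed here. By limma, with p adjusted over all genes tested, 5 of 80 were called at 6 h (3 higher and 2 lower, 6.25%, beside 5.78% of all genes), 4 of 80 at 2 h (1 higher and 3 lower, 5%, beside 1.86%) and 13 of 74 at 48 h (6 higher and 7 lower, 17.6%, beside 14.8%). The median difference over the lists was -0.01 at 6 h, -0.05 at 2 h and 0.01 at 48 h. At 6 h and 48 h the shares called were thus near those of all genes.

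Of the feedback inhibitors of the Sprouty and Spred kind, which dampen signalling from receptors to the MAP kinase cascade, 1 of 6 tested was lower at each time and 0 were higher. Spry1 averaged 6.77 ± 0.17 at 6 h and 6.89 ± 0.21 at 2 h, against 7.45 ± 0.15 with vector-ERt2 (SD, n = 3 each). It fell 1.6-fold at 6 h (adjusted p = 0.00806, limma) and 1.48-fold at 2 h (adjusted p = 0.0456), with all arrays below vector. At 48 h, Spry1 averaged 4.92 ± 1.63 in Ikaros and 10.04 ± 0.28 in 159A cells, and Spry4 averaged 3.22 ± 0.00 in Ikaros, just above the near-floor limit of 3.19, and 7.52 ± 1.09 in 159A cells (SD, n = 2 each). Neither passed, at adjusted p = 0.0759 and 0.0546 by limma. Spry1 was called with the stricter 60% filter (adjusted p = 0.016) and with each array centred on its median (adjusted p = 0.021), and Spry4 when centred (adjusted p = 0.0133) or quantile normalized (adjusted p = 0.0336). In the other settings that kept all arrays neither was called, and the mean of the Spry4 probe sets gave a log2 difference of -1.84, against -4.30 here. None of the 5 tested was called at 48 h, with 2 at an unadjusted p under 0.05.

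Of the immediate early genes and the factors ERK regulates, 26 were tested on Gene 1.0 ST, with 1 higher and 1 lower at 6 h and 1 higher and 2 lower at 2 h. Zfp36, whose protein destabilises AU-rich mRNAs, rose 1.44-fold at 6 h (8.26 ± 0.14 against 7.73 ± 0.05 in vector, SD, n = 3 each, adjusted p = 0.0032, limma) and 1.29-fold at 2 h (adjusted p = 0.0444). Ier2, an early response gene, fell 1.58-fold at 6 h (adjusted p = 0.00318) and 1.37-fold at 2 h (adjusted p = 0.047). Elk3, an ETS factor of the ternary complex type, fell 1.49-fold at 2 h (adjusted p = 0.032). A replicate block was also added to the limma fit of all Gene 1.0 ST arrays, so it covered the 6 h arrays too. Pairing of the 2 h and vector arrays alone was not tested. With the block, Zfp36 and Ier2 were not called at 2 h (adjusted p = 0.056 and 0.0565). Spry1 and Elk3 were called (adjusted p = 0.00877 and 0.00972). Rasa3, at adjusted p = 0.121 in the main fit, was called with the block (adjusted p = 0.0146). The count of 4 at 2 h fell to 0 without any 1 array except Ikaros-ERt2 2 h replicate 3, without which it was 2.

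At 48 h, 24 genes of this list were tested, with 2 higher and 4 lower, or 25%, beside 14.8% of all genes. Zfp36 rose 11.5-fold with Ikaros (11.32 ± 0.37 against 7.80 ± 0.48 in 159A cells, SD, n = 2 each, adjusted p = 0.0348, limma). Elk4, the relative of Elk3, rose 1.88-fold (adjusted p = 0.0366). With the mean of its probe sets, Elk4 gave a log2 difference of 0.54, against 0.91 here, and was not called. Phlda1 fell 17.1-fold (7.42 ± 0.27 against 11.51 ± 0.23 in 159A cells, adjusted p = 0.0212), and Etv5, an ETS factor often used as a readout of ERK, fell 3.94-fold (adjusted p = 0.0465). Jun, a component of AP-1, fell 3.81-fold (adjusted p = 0.0372), and Nr4a2, an orphan nuclear receptor, fell 2.2-fold (adjusted p = 0.034). All of these calls were lost without any 1 of the 4 arrays.

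Of the other phosphatases, 0 of 14 tested were called at 6 h or at 2 h by limma, with 2 and 0 at an unadjusted p under 0.05. Dusp22 had the smallest p of these, with 5.36 ± 0.25 at 6 h and 5.21 ± 0.15 at 2 h, against 4.94 ± 0.10 with vector-ERt2 (SD, n = 3 each, adjusted p = 0.0776 at 6 h and 0.355 at 2 h, limma). At 48 h, 2 of 9 were called, both higher with Ikaros. They were Dusp16, a phosphatase of JNK and p38, at 1.81-fold (10.04 ± 0.12 against 9.18 ± 0.03 in 159A cells, SD, n = 2 each, adjusted p = 0.0357, limma) and Dusp28 at 1.6-fold (adjusted p = 0.0415). Neither was called with no filter or with the replicate block. With the mean of its probe sets, Dusp16 gave a log2 difference of 0.59, against 0.86 here, and was not called.

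Among the Ras and ERK cascade genes, 1 of 20 was called at 6 h, 0 at 2 h and 2 of 22 at 48 h, with 4 at an unadjusted p under 0.05 at 2 h. Rasa2, which turns Ras off, rose 1.35-fold at 6 h (adjusted p = 0.0421, limma), a call that was lost in each of the 6 fits without 1 array (adjusted p = 0.0626 to 0.177). At 48 h, its relative Rasa3 fell 2.1-fold (adjusted p = 0.0284) and Sos2, a Ras activator, rose 1.33-fold (adjusted p = 0.0459), a call lost in 5 of 8 other settings that kept all arrays (adjusted p up to 0.192). Of the JNK, p38 and ERK5 kinases, 1 of 14 was called at 6 h, 0 at 2 h, with 2 at an unadjusted p under 0.05, and 3 of 14 at 48 h. Map3k1, which activates the JNK branch, rose 1.42-fold at 6 h (9.54 ± 0.10 against 9.04 ± 0.08 in vector, SD, n = 3 each, adjusted p = 0.00388, limma). At 2 h it averaged 9.36 ± 0.10 (adjusted p = 0.0747). At 48 h it rose 2.03-fold (adjusted p = 0.0286), a call lost with the mean of its probe sets (log2 difference 1.18, against 1.02 here). Mapk14, which encodes p38 alpha, and its substrate kinase Mapkapk2 fell 1.59-fold and 2.02-fold at 48 h (adjusted p = 0.0465 and 0.0242). The Mapk14 call was lost in each of 8 other settings that kept all arrays (adjusted p = 0.0532 to 0.117), and the mean of its probe sets gave a log2 difference of -0.21, against -0.67 here. Mapkapk2 was also the one pathway gene of 80 called between 6 h and 2 h, 1.38-fold lower at 6 h (adjusted p = 0.03), and it was called in 1 of 6 fits without 1 array, that without Ikaros-ERt2 6 h replicate 2.

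**Figure D4:**
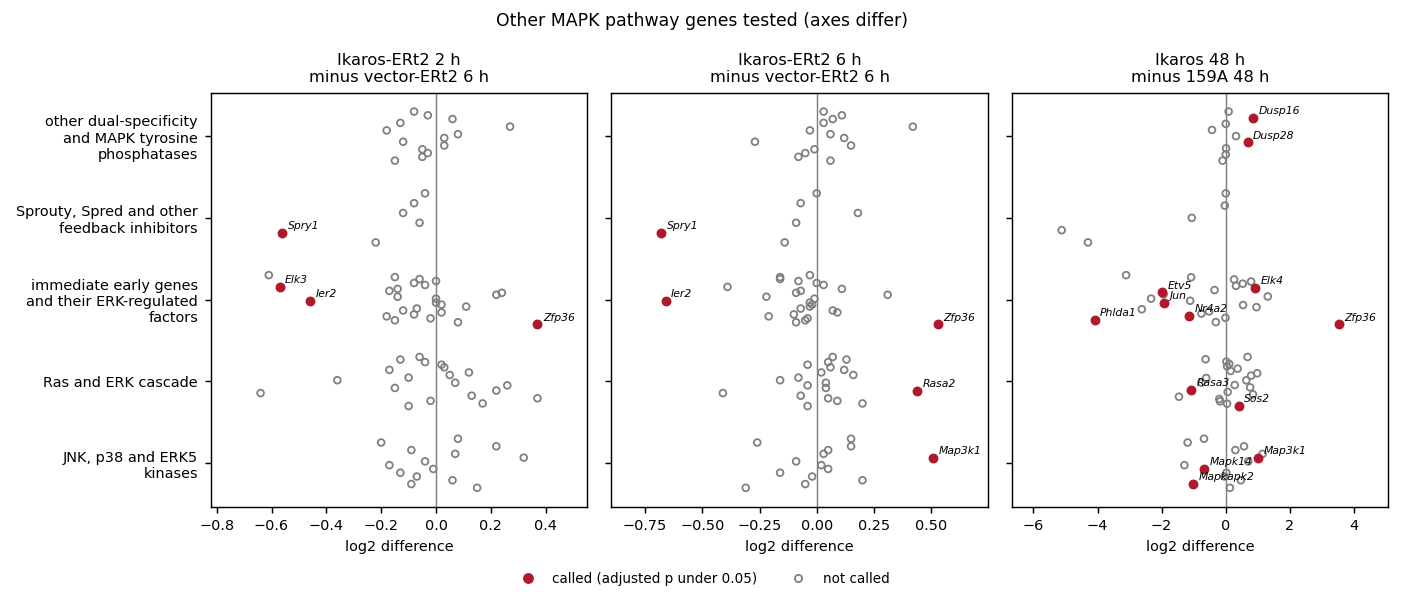
Log2 differences of the pathway genes tested, grouped by list, in the 2 h, 6 h and 48 h comparisons, with a scale of its own in each panel. Filled points passed an adjusted p under 0.05 in limma and are named, open points did not. Spry1 and Ier2 are lower and Zfp36 is higher in both comparisons with vector, and 13 genes are named at 48 h.

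Finally, the genes whose levels followed the members most closely over the 9 Gene 1.0 ST arrays were found for the 3 members with the widest range of group means. These correlations include the group differences and are a description. For Dusp7 they were Irf4 (r = 0.972), Adgrg1 (r = 0.97) and Lrrn4 (r = 0.969), and Irf4, which encodes a factor of the pre-B to B-cell transition, averaged 5.06 at 6 h and 5.34 at 2 h, against 5.75 with vector-ERt2. For Ier3 they were Bcl2l2 (r = 0.987), which encodes a survival protein of the Bcl-2 family, Limk1 (r = 0.964) and Bri3bp (r = 0.946). For Dusp5 they were 4930402H24Rik (r = 0.988), Adam9 (r = 0.986) and Foxo1 (r = 0.961), and Foxo1, a factor that acts in early B-cell development, averaged 8.77 at 6 h and 8.59 at 2 h, against 7.92 with vector-ERt2. The 3 genes nearest to Dusp7 and those nearest to Ier3 were lower in Ikaros-ERt2 than in vector cells, and those nearest to Dusp5 were higher. These directions follow from the way the genes were picked and are no separate result.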

How the data were processed

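RNA of the B3 line was hybridised to 13 arrays of 2 types. The deposited tables hold log2 values, with 1 value for each probe set on each array. Per the submitters' processing notes, the tools were limma, affy, RMA and GCRMA, with neither a version nor the array type given for any. The 2 types were analysed apart. Probe sets with 1 symbol in the platform annotation were kept, and the one with the highest mean stood for a gene. Tests covered the upper part by that mean, without the lowest 40%, or 10917 genes on 430 2.0 and 11963 on Gene 1.0 ST. Two-sided moderated tests came from limma 3.58.1 (R 4.3.3), and a gene was called at an adjusted p under 0.05 after Benjamini and Hochberg, with all 9 Gene 1.0 ST arrays in 1 fit. Errors of differences are standard errors of that fit.

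Groups came from the titles, where samples are biological replicates. Whether each was its own culture is not stated, so a p-value covers the spread of these samples, which may be technical. The number of arrays limits the precision. The labels number the replicates alike in each group. Deviations of same-numbered arrays from their group means correlated at 0.119, 0.128 and 0.235 between Ikaros-ERt2 2 h and vector-ERt2 6 h. These may therefore be paired, and a fit with a replicate block was added as an alternative. The main fits hold no block in any comparison, so errors and p-values printed without mention of it ignore such pairing. Between Ikaros-ERt2 6 h and vector they correlated at -0.004, -0.096 and 0.106, and between Ikaros-ERt2 2 h and 6 h at 0.244, -0.258 and -0.17. The 6 h and vector arrays were not taken as paired, but the replicate block covered every group of this array type. It therefore does not model a pairing of the 2 h and vector arrays alone.

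The members and the gene lists were chosen with earlier results of these data known. Named are all members, up to 3 called genes a direction for each pathway list and comparison (or the 2 with the smallest p), and the 3 nearest genes of 3 members. Nr4a2 is named outside that rule, after its values were seen. The alternatives were other filters, other scalings, other treatment of probe sets, a trend in the variance, the replicate block, a fit of 2 groups alone and leaving out each array.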

Additional observations from a re-analysis of the deposited data

Results flagged for a closer look

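Between Ikaros-ERt2 6 h and Ikaros-ERt2 2 h, which differ in exposure time, a pair of genes described above differed in that contrast itself. Dusp12 was lower at 6 h by 0.35 log2 units (log2 difference -0.35, SE 0.07, 6.18 ± 0.05 at 6 h and 6.53 ± 0.02 at 2 h, SD, n = 3 each), which is a description because the members were chosen on related contrasts. Mapkapk2 was lower at 6 h than at 2 h (log2 difference -0.46, adjusted p = 0.03 by limma, 9.10 ± 0.15 at 6 h and 9.56 ± 0.06 at 2 h, SD, n = 3 each). Against vector-ERt2 cells, at 9.41 ± 0.03, Mapkapk2 lay on opposite sides at the 2 times, with a log2 difference of 0.15 at 2 h (adjusted p = 0.437) and -0.31 at 6 h (adjusted p = 0.0541, limma). Neither of these passed, and the 2 differences share the vector arrays. No group held more than 3 arrays, so single arrays that stand apart from their group were not looked for.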

How the results depend on the processing

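Calls at 48 h rest on 2 arrays a group, and those at 2 h moved with most single arrays. At 48 h, 2 members and 13 pathway genes passed. These became 0 and 1 without the filter on low values, 4 and 21 with each array centred on its median, 4 and 15 with quantile normalization, and 1 and 10 with every probe set tested. With the replicate block they were 0 and 0, and no gene passed, with 4493 genes at an unadjusted p under 0.05. Same-numbered arrays correlated at 0.572 there, with 2 pairs only. Leaving out 1 array gave 0 and 0 in all 4 cases. The count over all genes, 1621, was 185 with no filter and 2434 when centred, and centring moved the median of all genes by 0.105.

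At 2 h, 5 members and 4 pathway genes passed. These became 3 and 0 with no filter, 5 and 2 with every probe set tested or with the 2 groups alone, and 1 to 4 and 0 to 2 when 1 array was left out. With the replicate block they were 6 (Dusp2 added) and 4, 2 of which were called without it. Of the pathway genes looked at with the block, the calls of Zfp36, Ier2 and Rasa3 changed at 2 h. Those of Spry1, Elk3, Dusp22 and Map3k1 stayed as they were. Another pathway gene was called at 2 h with the block alone and was not identified here. Vpreb1 and Mapkapk2 at 2 h were not looked at with the block. Over all genes, 223 became 141 with no filter and 82 to 176 without 1 array.

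At 6 h, 5 members and 5 pathway genes passed. Members were 4 with the stricter 60% filter and 5 otherwise, 5 without any 1 array, and pathway genes were 4 to 6, and 4 to 5 without 1 array. Ier3, which averaged 5.77 over the Gene 1.0 ST arrays, was the member missing with the 60% filter. It was missing at 2 h as well, where Dusp6 passed in its place. Between 6 h and 2 h, 1 member and 1 pathway gene passed. The member was lost, leaving 0, with no filter, the variance trend, the replicate block, the mean or every probe set, and with the 2 groups alone. Pathway genes were 2 with the replicate block and 0 with the 2 groups alone, when no gene passed in limma and 1301 had an unadjusted p under 0.05. Without 1 array both counts were 0 to 1. Over all genes, 45 were called higher and 63 lower at 6 h than at 2 h (41.7% higher), and when centred 44 higher and 114 lower (27.8% higher). Averaging the probe sets moved Dusp12 to -0.39 at 6 h, -0.18 at 2 h and -0.25 at 48 h, because its probe sets differ. The other causes were not tested.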
